A study of Mus musculus with 19 samples.

Results

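Afp, Gpc3, H19, Igf2, Golm1, Cd44, Prom1 and Ly6d, a set of fetal liver and liver cancer markers, were followed across mouse livers that differ in Pkd1 genotype. The genes were taken by symbol, and all 8 symbols have a row among the 35976 rows of the deposited count table. The 19 livers, 1 library each, came from 7 WT, 6 Het and 6 Homo mice, which the series describes as littermates. Every group, WT included, carried AAV-Cre, an adeno-associated virus that delivers Cre recombinase. All were kept for 3 months on Western Diet + CCl4. The labels name this a NASH (non-alcoholic steatohepatitis) model, which joins a rich diet to carbon tetrachloride, a chemical that injures hepatocytes. WT, Het and Homo name the genotype at Pkd1, the gene of polycystin-1, and the series' title says that mutant clones within cirrhotic livers were studied. The promoter that drives Cre, the share of cells it reached, the deleted part of Pkd1 and the age of the mice are not stated in those sources. Livers are named here by the number that closes each sample title (mouse 1, mouse 2 and so on), whose meaning is not explained there. Mice 1 to 3 were all WT and the lowest Homo number was 8, so the number is partly confounded with genotype.

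Fetal hepatocyte precursors make alpha-fetoprotein, glypican-3, H19 and IGF2 at high levels, and the adult liver largely silences their genes after birth, with repressors such as Zhx2 and Zbtb20 taking part. The same genes can be expressed again in regenerating liver and in hepatocellular carcinoma, which is why AFP, GPC3 and GOLM1 are used as tumour markers. Cd44 and Prom1 encode surface proteins of progenitor, duct and tumour cells, and Ly6d encodes a small surface protein of the LY6 family held by a lipid anchor. A whole-liver library averages over all cells, so fewer cells of a type and less RNA per cell cannot be told apart.

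The Afp promoter is shown because this gene is the classic example of fetal liver expression, and both Prom1 windows because Prom1 had the largest difference between genotypes. Each window runs from 250 bases before to 50 after a RefSeq transcription start (GRCm38.p6). Capitals mark matches on either strand to GTTAA (a motif of liver promoters), to CCAAT (the box of that name), to TATAAA (the TATA box) or to GGGCGG (the GC box).
Afp promoter, chr5:90490464-90490763, plus strand: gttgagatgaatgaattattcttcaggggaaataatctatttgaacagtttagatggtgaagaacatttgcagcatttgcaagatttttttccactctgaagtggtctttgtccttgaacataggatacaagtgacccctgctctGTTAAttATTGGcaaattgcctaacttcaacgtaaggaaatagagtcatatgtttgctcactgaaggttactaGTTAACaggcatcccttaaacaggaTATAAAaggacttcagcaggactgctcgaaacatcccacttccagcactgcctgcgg
Prom1 promoter at the first start, chr5:44101687-44101986, minus strand: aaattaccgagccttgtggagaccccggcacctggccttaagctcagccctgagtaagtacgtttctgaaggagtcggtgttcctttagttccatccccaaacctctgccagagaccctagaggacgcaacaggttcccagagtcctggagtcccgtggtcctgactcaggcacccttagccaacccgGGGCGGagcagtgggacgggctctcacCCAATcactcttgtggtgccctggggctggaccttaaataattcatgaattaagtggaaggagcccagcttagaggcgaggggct
Prom1 promoter at the second start, chr5:44094719-44095018, minus strand: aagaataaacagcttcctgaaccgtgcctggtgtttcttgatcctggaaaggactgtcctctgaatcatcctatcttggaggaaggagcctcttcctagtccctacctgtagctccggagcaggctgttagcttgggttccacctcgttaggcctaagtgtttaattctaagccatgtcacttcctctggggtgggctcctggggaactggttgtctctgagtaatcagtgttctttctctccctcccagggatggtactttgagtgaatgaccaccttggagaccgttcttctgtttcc
The Afp window held 3 matches to GTTAA, of which 2 overlap on opposite strands in a palindrome, 1 to TATAAA and 1 to CCAAT. The first Prom1 window held 1 match to CCAAT and 1 to GGGCGG, and the second held none of the 4 motifs. Over all 32851 such mouse windows, 24.2% held GTTAA, 13.6% TATAAA, 37.4% CCAAT and 35.7% GGGCGG. Promoters of 6 of the 8 genes were matched by symbol, and H19 and Ly6d were not.

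H19 is a long non-coding RNA whose gene encloses the precursor of miR-675, from which 2 mature miRNAs are cut. They are printed because they are known products of a member that makes no protein, with the seed (bases 2 to 8) in capitals.
mmu-miR-675-5p: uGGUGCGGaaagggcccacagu
mmu-miR-675-3p: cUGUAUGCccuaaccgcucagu
The seeds differ from each other. The row of the precursor itself, Mir675, held 3 reads over all 19 libraries, and mature miRNAs were not measured by these libraries.

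The libraries held between 25.8 and 42.1 M counts each (M, mega), and Pkd1 itself did not pass in any comparison (Homo against WT, log2 fold change -0.18 ± 0.08, SE, adjusted p = 0.315 with edgeR). Pancreatic enzyme genes stood out in 3 livers, mice 8 and 17 (Homo) and 19 (Het). The summed level of 7 of them (Cela1, Cela2a, Cela3b, Prss2, Cpa1, Amy2a1 and Pnlip) was 113 to 239 CPM (counts per M counts) there, against 1.05 to 3.18 CPM in the other 16.

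All 8 genes were detected in liver at levels far below that of albumin. Per kilobase of exon (GENCODE M21, GRCm38), the mean level over the 19 livers was 10.7 ± 1.97 CPM per kb for Cd44 (SD, n = 19), 1.93 ± 1.13 for Prom1, 1.66 ± 1.01 for Ly6d and 1.30 ± 0.33 for Golm1. The fetal genes followed, with 0.91 ± 0.53 CPM per kb for H19, 0.59 ± 0.25 for Igf2, 0.36 ± 0.11 for Gpc3 and 0.32 ± 0.09 for Afp. On this scale Cd44 lay above Prom1 by more than the spread of either, while each later gap between neighbours was smaller than the larger of their 2 SDs. The order of these neighbours also changed with genotype: Ly6d (2.13) was above Prom1 (1.24) in WT and below Golm1 (1.11 against 1.27) in Het, and Gpc3 (0.32) was below Afp (0.35) in WT. Albumin (Alb), the main secreted protein of hepatocytes and the chromosomal neighbour of Afp, was at 4378 ± 617 CPM per kb.

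In Homo against WT, none of the 8 genes passed (edgeR's quasi-likelihood test, adjusted p under 0.05), where 0.48% of the 16463 tested genes did (0.292% higher and 0.188% lower in Homo). All 8 had passed the filter on low counts. DESeq2 also called 0 of the 8. Prom1 was the 1 member with an unadjusted p under 0.05, a level that 12.9% of tested genes reached. In Het against WT edgeR and DESeq2 again called 0 of the 8, against 0.0243% of tested genes with edgeR (0.0182% higher, 0.00607% lower), and Ly6d alone had an unadjusted p under 0.05 (8.84% of tested genes). In Homo against Het both tools called 0 of the 8, against 0.182% with edgeR (0.146% higher, 0.0364% lower), and Cd44 alone had an unadjusted p under 0.05 (6.29% of tested genes). The median log2 fold change of the 8 was 0.18, -0.04 and 0.20 in the 3 comparisons. Both comparisons with WT share the same WT libraries.

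**Figure D1:**
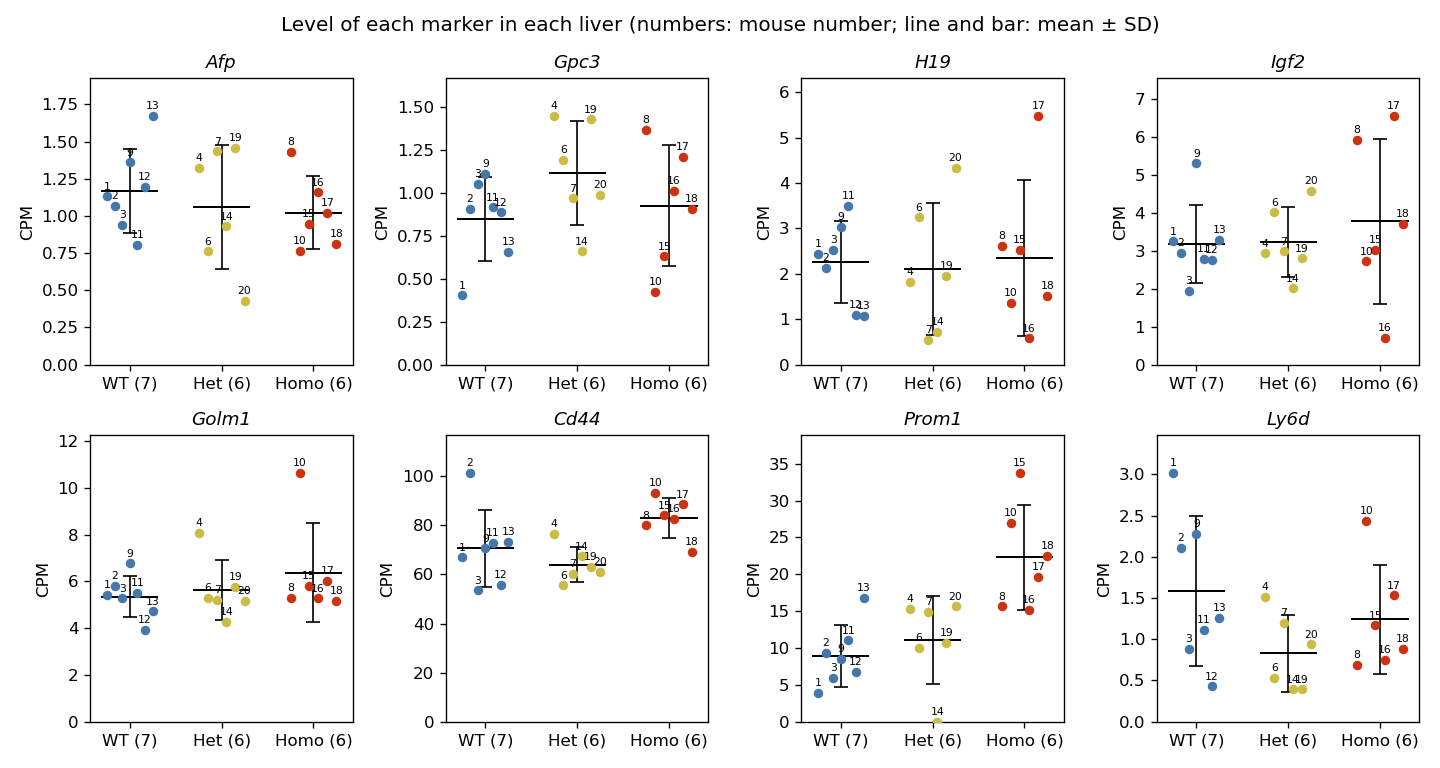
CPM of each marker (y axis, from 0) in each liver, by Pkd1 genotype (7 WT, 6 Het and 6 Homo), with the mouse number beside each point and the mean ± SD as a line and bar. The genotypes overlap for every gene, Prom1 is at 0 in Het mouse 14, and Golm1 in Homo mouse 10 lies at 10.7 CPM.

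Among the fetal secreted and surface proteins, Afp (chromosome 5, 90490737 to 90508907), the main plasma protein of the fetal liver, had the lowest mean level per kilobase of the 8 over the 19 livers, though not in WT alone. Its level was 0.81, 1.13 and 1.67 CPM in WT (lowest, median, highest), 0.43, 1.13 and 1.46 in Het and 0.77, 0.98 and 1.43 in Homo. These rest on 17 to 56 reads per liver, and the 3 ranges overlapped almost entirely. WT mouse 13 was highest and Het mouse 20 lowest, and no liver reached 2-fold the overall mean of 1.09 CPM. In Homo against WT the log2 fold change was -0.19 (95% interval -0.73 to 0.35, adjusted p = 0.809, edgeR), so a rise to more than 1.27-fold of WT lies outside the interval.

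Gpc3 (X chromosome, 52272426 to 52613950) encodes glypican-3, a heparan sulfate proteoglycan on the cell surface. It was at 0.40, 0.91 and 1.11 CPM in WT (lowest, median, highest), 0.66, 1.09 and 1.45 in Het and 0.43, 0.96 and 1.37 in Homo. Of the 6 Het mice, 3 lay above the highest WT mouse, and WT mouse 1 and Homo mouse 10 were the lowest. The differences were within the spread: 0.39 on the log2 scale for Het against WT (95% interval -0.19 to 0.98, adjusted p = 0.718, edgeR) and 0.13 for Homo against WT (-0.46 to 0.72, adjusted p = 0.894). Without mice 8, 17 and 19, which held pancreatic transcripts, the second value turned to -0.19.

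The imprinted pair H19 and Igf2 varied more between mice of 1 genotype than most genes did. H19 (chromosome 7, 142575529 to 142578143), transcribed from the maternal allele, was at 1.08, 2.44 and 3.50 CPM in WT (lowest, median, highest), 0.54, 1.90 and 4.33 in Het and 0.58, 2.02 and 5.48 in Homo. Igf2 (chromosome 7, 142650766 to 142666816), a growth factor of fetal tissue transcribed from the paternal allele, was at 1.94, 2.94 and 5.31 CPM in WT, 2.01, 2.96 and 4.59 in Het and 0.70, 3.37 and 6.56 in Homo. In the Homo group the highest liver, mouse 17, exceeded the lowest, mouse 16, 9.47-fold for H19 and 9.44-fold for Igf2. Without mouse 16 the highest of the other 5 Homo livers exceeded the lowest 4.03-fold for H19 and 2.41-fold for Igf2. The coefficient of variation of H19 was 40.4% in WT, 69.5% in Het and 73.2% in Homo, and that of Igf2 was 32.7%, 28.6% and 57.5%.

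Group differences of H19 and Igf2 were small beside this spread. Homo against WT was at 0.05 on the log2 scale for H19 (95% interval -0.93 to 1.03, adjusted p = 0.975, edgeR) and at 0.25 for Igf2 (-0.46 to 0.95, adjusted p = 0.811). Het against WT was at -0.09 and 0.02, with adjusted p of 0.972 and 0.990. These intervals still allow a 2-fold difference for H19. Mice 17 and 8, with the 2 highest Igf2 levels of the 19, are also the 2 livers with most pancreatic enzyme transcript, while mouse 19 was at 2.80 CPM of Igf2. Without mice 8, 17 and 19, Homo against WT turned to -0.60 for H19 and -0.33 for Igf2, and Homo against Het turned from 0.15 and 0.23 to -0.53 and -0.38, not called in either fit. The part of the pancreatic transcripts in the Igf2 and H19 levels was not tested.

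H19 and Igf2, 72.6 kb apart, tended to be high or low in the same mice, as the plot of H19 against Igf2 shows. Pearson's r of log2 CPM over the 19 livers was 0.66 (permutation p = 0.00125, adjusted p = 0.035 over the 28 pairs of members) and Spearman's rho was 0.59 (p = 0.0102, adjusted p = 0.101). Without mice 7 and 16, farthest from the median of H19, r was 0.62. It was 0.67 after centring on the genotype means, 0.90 within Homo and 0.79 within Het (n = 6 each), but 0.12 within WT (n = 7). Without mice 8, 17 and 19, r was 0.59 (permutation p = 0.0103) and rho 0.49 (p = 0.0569). The rank correlation did not pass the adjusted threshold, so the relation holds by Pearson's r alone.

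**Figure D2:**
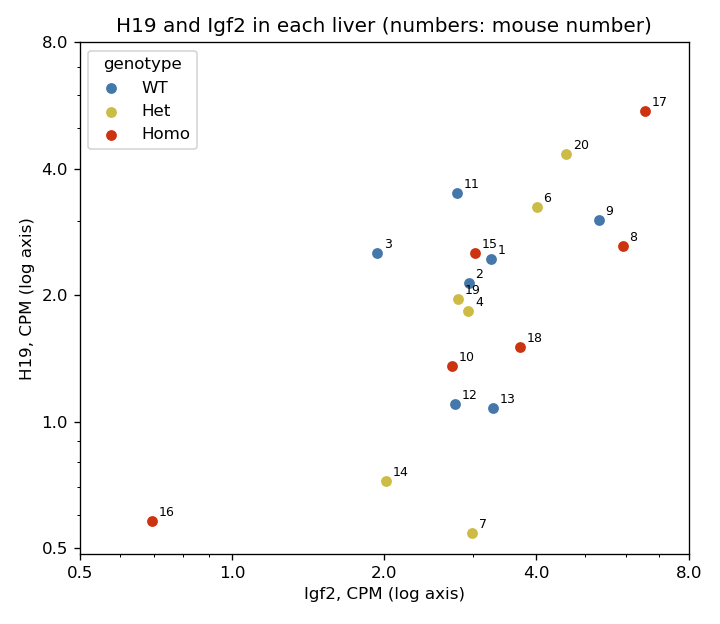
H19 (y axis) against Igf2 (x axis) in CPM, both on log axes, with 1 point per liver, coloured by genotype and labelled with the mouse number. Homo mouse 17 lies at the top right and Homo mouse 16 at the bottom left.

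Golm1 (chromosome 13, 59634626 to 59675811), a Golgi membrane protein measured in serum as a tumour marker, was at 3.92, 5.44 and 6.78 CPM in WT (lowest, median, highest), 4.26, 5.25 and 8.07 in Het and 5.17, 5.55 and 10.7 in Homo. Homo mouse 10 stood far above the other Homo livers, which lay between 5.17 and 6.02 CPM, and Het mouse 4 was the second highest. Homo against WT was at 0.25 on the log2 scale (95% interval -0.12 to 0.62, adjusted p = 0.57, edgeR) and at 0.05 without mouse 10. Every Golm1 count was even in all 19 libraries, as for 109 of the 14452 rows (0.754%) with a mean count over 20, while 0 rows were odd throughout. Its counts therefore move in steps of at least 2, and counting error read from them is too small. The end of Golm1 shares 1297 bases with Naa35 on the other strand, and no source used here gives the strand setting of the counting.

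Cd44 (chromosome 2, 102811141 to 102901665), the receptor for hyaluronan in the matrix, was the most abundant member. It was at 53.6, 70.7 and 102 CPM in WT (lowest, median, highest), 55.6, 62.1 and 76.5 in Het and 69.1, 83.4 and 93.4 in Homo. Of the 6 Homo mice, 5 lay above all 6 Het mice, whereas WT mouse 2, at 102 CPM, was the highest of all 19. Homo against Het was at 0.38 ± 0.12 on the log2 scale (95% interval 0.12 to 0.63; adjusted p = 0.444, edgeR; unadjusted exact permutation p = 0.00433, two-sided, 1 of 24 such tests over the members). Homo against WT was at 0.23 ± 0.12 (adjusted p = 0.418) and Het against WT at -0.14 ± 0.12 (adjusted p = 0.761). The spread of Cd44 between mice of a genotype, 0.22 on the log2 scale, was the smallest of the 8 and below the median of 0.27 over tested genes.

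Cells that carry CD44 on their surface include leukocytes and activated stellate cells, so their marker lists stand beside it. The summed level of 12 stellate and myofibroblast genes was 194 to 320 CPM in WT, 218 to 251 in Het and 235 to 293 in Homo, and that of 12 macrophage genes was 250 to 330, 245 to 288 and 229 to 319. T and NK cell genes (10 with a row) summed to 5.41 to 8.58 CPM in WT, 5.09 to 7.59 in Het and 6.99 to 12.8 in Homo. B and plasma cell genes (6) summed to 2.84 to 5.14, 2.43 to 4.60 and 2.37 to 7.35 CPM. Neutrophil genes (8, of which 3 were tested) summed to 18.5 to 30.9, 15.0 to 26.5 and 12.7 to 37.9 CPM. Most of this sum was Csf3r, which averaged 22.4, 18.6 and 19.0 CPM. Over the 19 livers, Spearman's rho of Cd44 was 0.63 with the stellate sum, 0.52 with the macrophage sum and 0.49 with the T and NK sum. It was 0.65 with the B and plasma cell sum and 0.45 with the neutrophil sum. With the summed duct and proliferation genes described below, rho of Cd44 was 0.63 and 0.57. Among the smallest in p for Homo against WT were Col3a1, Lox and Postn (0.53 ± 0.13), Cd5l (-0.32 ± 0.12), Cd68 and Gpnmb, Cd3e, Cd4 and Il2rb, Cd79a and Jchain, and Csf3r, S100a8 and S100a9. No gene of these lists was called in any comparison, and none was at 0 in every liver. In Homo against Het 49.7% of all tested genes had a log2 fold change above 0. Of these lists it was 9 of 12 stellate, 8 of 12 macrophage and 6 of 6 tested T and NK genes. It was also 2 of 5 tested B and plasma cell genes and 3 of 3 tested neutrophil genes. In Homo against WT the counts were 7, 6, 6, 2 and 1 in this order (50.3% of all tested genes). The part of these cells in the Cd44 level was not tested.

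Prom1 (chromosome 5, 43993620 to 44102032), prominin-1, a membrane protein with many spans found on bile duct and progenitor cells, was 2.51-fold higher on average in Homo than in WT livers. The 7 WT livers were at 3.93, 9.30, 5.89, 8.50, 11.0, 6.73 and 16.8 CPM (mice 1, 2, 3, 9, 11, 12 and 13). The 6 Homo livers were at 15.6, 26.9, 33.8, 15.2, 19.7 and 22.5 CPM (mice 8, 10, 15, 16, 17 and 18). Thus 4 of the 6 Homo livers lay above the highest WT liver, mouse 13, and the other two lay below it but above the remaining 6. The 6 Het livers were at 15.3, 10.0, 14.9, 0, 10.7 and 15.6 CPM (mice 4, 6, 7, 14, 19 and 20), so 5 Homo livers exceeded the highest Het liver.

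Het mouse 14 stood apart, with 0 Prom1 reads where the other 18 livers had 156 to 1070. A count of 0 allows up to 3 reads, or 0.0901 CPM, so even the lowest other Het liver was at least 111-fold higher. Of the 11318 rows with at least 50 reads in each of 18 libraries, 3 were at 0 in the remaining library: Prom1, Dmtn (Het mouse 20) and Kcnab2 (Het mouse 19), the last 2 named after their values were seen. Most other duct genes had reads in mouse 14: Krt19 had 31 reads, within the 11 to 41 of the other Het livers, Tspan8 17 (14 to 90) and Spp1 2802 (1703 to 4257). Krt7 (7 reads against 8 to 14), Sox9 (87 against 94 to 243) and Ehf (116 against 180 to 280) were below the other Het livers, as was Cd24a by CPM (0.87 against at least 0.97). Cftr and Cldn4 had 0 reads in mouse 14, and in the other Het livers 0 to 35 and 0 to 2. The fat cell gene Plin1 was at 3.81 CPM in mouse 14 and at most 1.18 CPM elsewhere. Whether the 0 is a property of this mouse or of its library was not tested.

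Prom1 passed in Homo against WT only when this 1 liver was left out, though it does not belong to that comparison. With all 19 libraries, Homo against WT was at 1.33 ± 0.51 on the log2 scale (95% interval 0.27 to 2.38, adjusted p = 0.276, edgeR). Without mouse 14 the difference was again 1.33, but the SE was 0.26 and Prom1 passed (adjusted p = 0.0246), where 0.433% of 16631 tested genes did. In a fit of WT and Homo alone it was 1.33 ± 0.28 (adjusted p = 0.0578), and across the other 18 fits that each left out 1 liver the adjusted p was 0.228 or more. With mouse 14 kept, the difference was 1.04 ± 0.61 without WT mice 1 to 3 (adjusted p = 0.701, edgeR). It was 1.22 ± 0.56 with mouse number as a covariate (0.611) and 1.47 ± 0.59 without mice 8, 17 and 19 (0.302). The exact permutation test over mice, which does not share its spread with Het, gave p = 0.0035 (two-sided, unadjusted, 1 of 24). Homo against Het was at 1.01 ± 0.53 (adjusted p = 0.837) and at 0.74 ± 0.29 without mouse 14 (adjusted p = 0.588; exact permutation p = 0.0173, unadjusted).

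**Figure D3:**
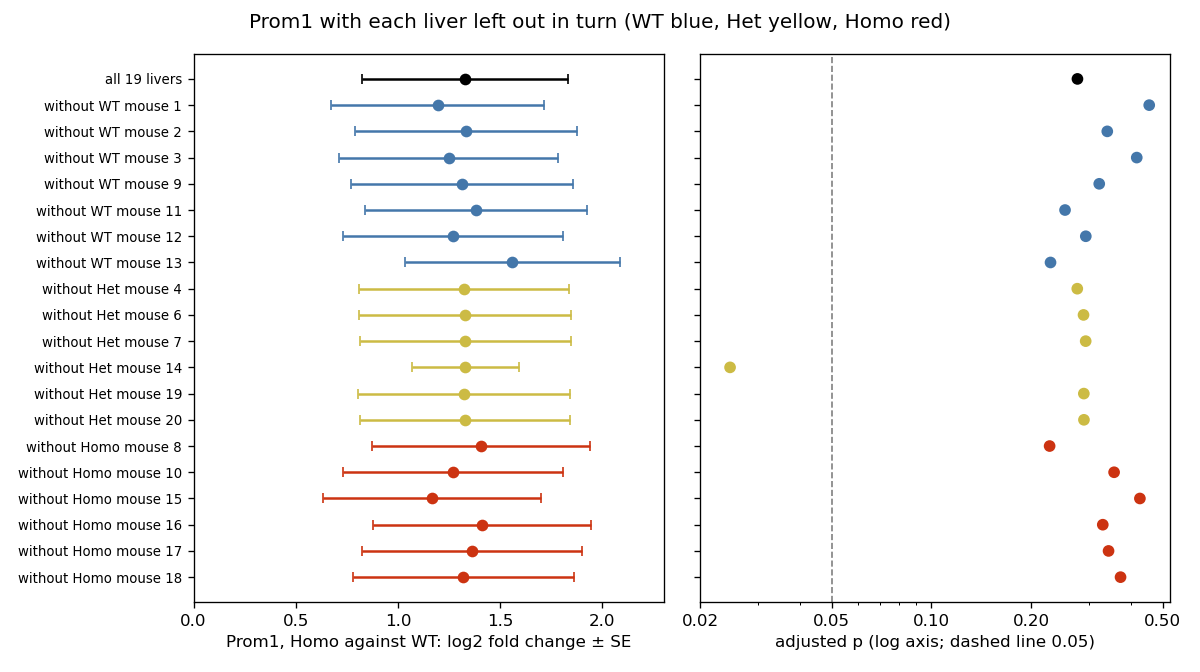
Prom1 in Homo against WT, as log2 fold change ± SE (left) and adjusted p on a log axis (right, dashed line at 0.05), with all 19 livers (black) and with each liver left out in turn. The fold change stays between 1.17 and 1.56, and the adjusted p is under 0.05 only without Het mouse 14.

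Some bile duct markers were called in Homo against WT and in Homo against Het, where Prom1 was not called with all 19 livers. Of 14 tested genes of the duct list other than Prom1, 5 rose in Homo against WT and 0 fell, with a median of 0.91, and in Homo against Het 5 rose and 0 fell, with a median of 1.39. Called or not, 11 of the 14 were above 0 in Homo against WT (50.3% of all tested genes) and 13 in Homo against Het (49.7%). Krt7 and Krt19, keratins of duct cells, rose in Homo against WT by 3.06 ± 0.40 and 2.50 ± 0.39, and the mucin Muc1 by 1.83 ± 0.37 (adjusted p = 0.00043, 0.00305 and 0.025, edgeR). The calls of Krt7 and Krt19 held in all 19 fits that each left out 1 liver and that of Muc1 in 13. Without WT mice 1 to 3 the adjusted p of Krt19 was 0.057 and that of Muc1 0.247, and with mouse number as a covariate that of Muc1 was 0.0941. In a fit of WT and Homo alone that of Muc1 was 0.0638. In Het against WT 0 of 14 passed with edgeR (median -0.28, 4 of 14 above 0). Prom1 was at 0.32 ± 0.51 in that comparison, and at 0.59 ± 0.27 without mouse 14, not called in either fit. The summed level of the 15 duct genes with a row was 143 to 245 CPM in WT, 140 to 221 in Het and 223 to 305 in Homo, and none was at 0 in every liver. Spearman's rho of Prom1 over the 19 livers was 0.59 with this sum and 0.72 with the summed proliferation genes described below. With the sums of the other cell lists it lay between -0.41 (erythroid) and 0.42 (B and plasma cells). The part of duct cells in the Prom1 level was not tested.

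Ly6d (chromosome 15, 74762056 to 74763620) was at 0.43, 1.26 and 3.02 CPM in WT (lowest, median, highest), 0.39, 0.73 and 1.51 in Het and 0.69, 1.03 and 2.44 in Homo. It rests on 13 to 120 reads per liver. WT mouse 1 was the highest of all, Homo mouse 10 the second, and WT mouse 12, Het mouse 14 and Het mouse 19 the lowest, so all groups overlapped. Het against WT was at -0.94 ± 0.43 on the log2 scale (95% interval -1.85 to -0.04, adjusted p = 0.556, edgeR). A fit that also held the mouse number gave -0.62 ± 0.43, and one without WT mice 1 to 3 gave -0.62 ± 0.48, and in neither fit was its unadjusted p under 0.05. Homo against WT was at -0.35 ± 0.42 (adjusted p = 0.777) and turned to 0.17 with the mouse number as a covariate. The slope of Ly6d on the mouse number was -0.07 per number (adjusted p = 0.228, edgeR), in a fit that called 6.4% of tested genes for the number.

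**Figure D4:**
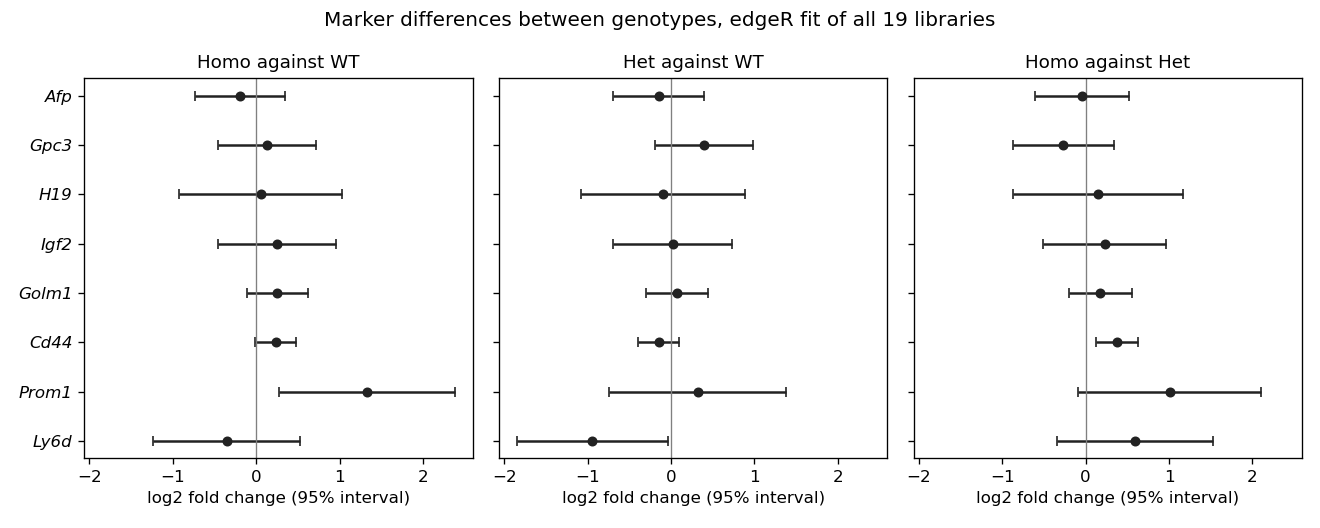
Log2 fold change (points) with its 95% interval (bars) of the 8 markers in the 3 comparisons, from the edgeR fit of all 19 livers. The intervals of Prom1 in Homo against WT, Ly6d in Het against WT and Cd44 in Homo against Het lie on 1 side of 0, and none of the 3 passed after adjustment.

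No mouse was among the highest, or among the lowest, for all 8 members. Homo mouse 10 was among the 3 highest livers for Golm1, Cd44, Prom1 and Ly6d and among the 3 lowest for Afp and Gpc3. Het mouse 14 was among the 3 lowest for H19, Igf2, Golm1, Prom1 and Ly6d. Homo mouse 17 was the highest for both H19 and Igf2. Of the 28 pairs of members, H19 with Igf2 and Golm1 with Ly6d passed by Pearson's r after adjustment, and 0 pairs passed by Spearman's rho. For Golm1 with Ly6d, r was 0.61 (permutation p = 0.00331, adjusted p = 0.0463), rho was 0.61 (p = 0.00638, adjusted p = 0.101) and r was 0.59 without mice 10 and 4. Within genotypes their r was 0.78 in WT, 0.61 in Het and 0.90 in Homo. By spread within genotype on the log2 scale, Prom1 (1.86, mouse 14 included), H19 (0.95), Ly6d (0.80) and Igf2 (0.72) lay at the 99.4, 92.9, 89.6 and 87.5 percentiles of tested genes. The log2 value of the 0 count in mouse 14 is set by the prior count, and without that liver the spread of Prom1 was 0.52, at the 77.4 percentile and below those of H19 (0.93), Ly6d (0.79) and Igf2 (0.72).

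For each member, the 3 tested genes with the most similar order of livers are given by Spearman's rho over 19 livers, as a description. They are the highest values among all tested genes, so high values can arise by this choice alone. Prom1 was most alike Ckmt1 (0.92), a mitochondrial creatine kinase, Muc1 (0.88) and Myo5c (0.84), a myosin of epithelial cells. By Pearson's r, mouse 14 included, these 3 were at 0.54, 0.46 and 0.57. Cd44 was most alike Sftpd (0.86), surfactant protein D, Bcl11a (0.85), a transcription factor, and Krt19 (0.83). Ly6d was most alike Anxa5 (0.89), an annexin, Mlec (0.85), a lectin of the endoplasmic reticulum, and Ppp1r11 (0.82). Golm1 was most alike Zbtb17 (0.85), Acot9 (0.79) and Cryab (0.76), a small heat shock protein. H19 was most alike Akr1c18 (0.85), Gm40935 (0.80) and Herc2 (0.79). Igf2 was most alike BC025920 (0.76), Dctd (0.72) and Gosr1 (0.72). Afp was most alike Nlrp3 (0.78), Cd46 (0.76) and Gm40194 (0.76), and Gpc3 Gm36800, Gpr22 (0.72 each) and Mroh8 (0.71). Of these genes, Krt19 and Muc1 passed in Homo against WT. Some were near the floor: Ckmt1, Akr1c18 and BC025920 averaged 0.21, 0.24 and 0.23 CPM.

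Other oncofetal and tumour genes were followed through a list of 32, of which 28 were tested. In Homo against WT 2 rose and 0 fell, with a median of 0.25. Cd24a, a surface protein of progenitor cells, averaged 4.02 ± 1.87 CPM in the 6 Homo livers and 1.42 ± 0.58 CPM in the 7 WT livers (± SD), and rose by the test (adjusted p = 0.0194, edgeR). The tetraspanin gene Tspan8 rose by 1.98 ± 0.39 on the log2 scale (adjusted p = 0.0233). In Homo against Het Epcam, an adhesion protein of duct cells, also rose, by 1.38 ± 0.28 (adjusted p = 0.0437), a call that held in 7 of the 19 fits that each left out 1 liver. All 3 are on the duct list too. In Het against WT 0 of 28 passed (median -0.17). Of the 19 fits that each left out 1 liver, the calls in Homo against WT held in 15 for Cd24a and 13 for Tspan8. Without WT mice 1 to 3 both calls ended (adjusted p = 0.261 and 0.243), as they did with mouse number as a covariate (0.0908 and 0.141). In fits of the 2 genotypes compared alone, the calls of Cd24a in Homo against WT (adjusted p = 0.0531), and of Tspan8 and Epcam in Homo against Het (0.072 and 0.074), also ended. Epcam was not called without WT mice 1 to 3 (0.0536) or without mice 8, 17 and 19 (0.148).

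Of 17 regulators that silence fetal liver genes or drive liver transcription, all tested, 0 passed in each comparison (edgeR), with medians of 0.00 in Homo against WT, 0.06 in Het against WT and -0.02 in Homo against Het. In Homo against WT the transcription factor genes Onecut1, at 0.96 ± 0.52, and Foxa2, at 0.29 ± 0.19, were among the smallest in p (adjusted p = 0.448 and 0.557, edgeR). Of 14 tested imprinted growth genes other than H19 and Igf2, 0 passed in each comparison (median 0.09 in Homo against WT). Peg3, an imprinted zinc finger gene, was at 0.46 ± 0.17, Plagl1 at 0.52 ± 0.20 and the non-coding Rian at -1.44 ± 0.55. The insulin-like growth factor pathway, with Igf2 left out, had 0 of 18 tested genes called in each comparison. Its receptor Igf1r was at 0.27 ± 0.12, the binding protein Igfbp2 at 0.34 ± 0.13 and Insr at 0.12 ± 0.07 in Homo against WT.

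Around the surface proteins, 1 of 15 tested genes of the CD44 and hyaluronan list rose and 0 fell in Homo against WT. It was Ezr (ezrin), which ties membrane proteins such as CD44 to actin, and it rose by 0.93 ± 0.17 (adjusted p = 0.0115, edgeR) and in Homo against Het by 0.89 ± 0.18 (adjusted p = 0.0384). Esrp1, a splicing factor of epithelial cells, was at 1.59 ± 0.55 and Lyve1, a hyaluronan receptor of sinusoidal endothelium, at -0.64 ± 0.16 in Homo against WT, not called. Of 14 tested genes of the glypican and heparan sulfate list, Gpc3 left out, 0 passed in each comparison. Its smallest p in Homo against WT belonged to Sulf1, a sulfatase, at 0.78 ± 0.26, Sdc4 at -0.37 ± 0.13 and Sdc2 at -0.13 ± 0.06. Of 7 tested LY6 family genes other than Ly6d, 1 rose in Homo against WT: Ly6a, a surface protein induced by interferon, by 0.70 ± 0.15 (adjusted p = 0.039). Ly6c1 was at 0.82 ± 0.26 and Lynx1 at 0.57 ± 0.27. Of the 19 fits that each left out 1 liver, the call in Homo against WT held in 19 for Ezr and 10 for Ly6a, and that of Ezr in Homo against Het held in 7. Without WT mice 1 to 3 the adjusted p in Homo against WT was 0.108 for Ezr and 0.297 for Ly6a, and with mouse number as a covariate that of Ezr was 0.0771. Without mice 8, 17 and 19 the calls of Ly6a in Homo against WT (0.106) and of Ezr in Homo against Het (0.137) ended.

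Of the proliferation list 1 of 15 tested genes passed in Homo against WT, the cyclin Ccnd1, which rose by 1.06 ± 0.23 (adjusted p = 0.045, edgeR), a call that held in 6 of the 19 fits that each left out 1 liver. Its adjusted p was 0.249 with mouse number as a covariate, 0.349 without WT mice 1 to 3 and 0.0849 without mice 8, 17 and 19. Mki67 was at 0.73 ± 0.18 and Top2a at 0.39 ± 0.17, not called. The summed level of the list's 19 genes was 46.4 to 63.4 CPM in WT, 39.6 to 73.1 in Het and 75.3 to 113 in Homo. Ccnd1 alone averaged 22.9, 28.6 and 47.6 CPM in these groups, so the sum largely follows this 1 gene. Mki67 averaged 8.62, 8.89 and 14.3 CPM, and 11 of the 15 tested genes had a log2 fold change above 0 in Homo against WT (50.3% of all tested genes). Of 12 hepatocyte and 10 endothelial genes, all tested, and of 3 tested erythroid genes, 0 passed in each comparison. Hepatocyte genes summed to 29294 to 35325 CPM in WT, 32430 to 34137 in Het and 30453 to 36316 in Homo, so the labelled tissue carried its defining markers in every liver. By the smallest p in Homo against WT, the hepatocyte genes were Cyp2e1 (0.28 ± 0.14), Fgb (-0.22 ± 0.11) and Ttr (-0.25 ± 0.11), and the endothelial genes Cdh5, Lyve1 and Stab2 (-0.15 ± 0.06). The erythroid genes were Alas2 (-0.21 ± 0.09), Hbb-bs and Hbb-bt (-0.59 ± 0.23).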

How the data were processed

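RNA was prepared from 19 mouse livers with Trizol and an RNeasy kit and made into libraries with a NuGen Ovation kit, per the labels' protocols. The file the authors deposited holds raw counts, with gene symbols as rows and livers as columns. The submitters' processing notes list STAR 2.7.2b, featureCounts 1.6.4 and GRCm38, without settings. Genotype came from the labels. The members and the 18 other gene lists were chosen with earlier results of these data known, so no pattern here is independent support for those.

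All libraries entered 1 edgeR 4.0.16 fit (R 4.3.3; TMM, filterByExpr, quasi-likelihood test) with genotype as its factor, and p-values were adjusted (Benjamini-Hochberg) over the 16463 tested genes. SE is the size of the log2 fold change over the square root of F. Log2 CPM uses a prior count of 2. P-values of the fit set a group difference against the spread between livers, estimated over all genotypes in the fit. Those of the permutation tests come from reordering the livers. A date stands in 27 rows in place of a symbol, at most 0.173% of a library's counts, and these stayed in the totals. All members, Pkd1, the 3 smallest p of each list and the 3 most alike genes of each member are named, except 2 list genes not reported here. Correlations used 100000 permutations. Alternatives were DESeq2 1.42.0, its size factors in edgeR, other filters, robust estimation, 2 genotypes only, mouse number as a covariate, and leaving libraries out. With genotype and mouse number in 1 edgeR fit, 1054 of 16463 tested genes (6.4%) were called for the number. Leaving out mice 8, 17 and 19 was chosen after seeing the data. The fits were tested on simulated data.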

Additional observations from a re-analysis of the deposited data

Results flagged for a closer look

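For each member the highest and lowest liver of each genotype were compared with the rest of that group by Dixon's ratio, the gap to the next liver divided by the group's range of log2 CPM. Of 24 groups 2 held a liver past the 95% limit of 0.625 for 6 samples, and chance gives about 1 in 20. Prom1 in Het mouse 14 (0 reads) had a ratio of 0.921 as the lowest of 6, with a log2 value set by the prior count. Golm1 in Homo mouse 10 (376 reads, 10.7 CPM) had a ratio of 0.790 as the highest of 6.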

How the results depend on the processing

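The count of members called was 0 in all 3 comparisons and under each alternative, except that it was 1 (Prom1) in Homo against WT without Het mouse 14, so that leaving out single livers gave 0 to 1. Of 672 refitted values of the 24 member differences, 32 had the other sign, the largest of them 0.60 in size, and none of the 32 was called. Outside single livers left out, the signs that turned were Igf2 in Het against WT without mice 1 to 3 (-0.13), H19 and Ly6d in Homo against WT with mouse number as a covariate (-0.0915 and 0.17), and, without mice 8, 17 and 19, H19, Igf2 and Gpc3 in Homo against WT (-0.60, -0.33 and -0.19) and H19 and Igf2 in Homo against Het (-0.53 and -0.38). The cause was not tested.

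The background count of called genes was 79 in Homo against WT, 328 with DESeq2, 25 without mice 1 to 3, 38 once mouse number entered the fit and 51 without mice 8, 17 and 19. Leaving out 1 liver gave 35 to 122 (41, 36, 122 and 49 without WT mice 1, 3, 12 and 13, and 45, 35 and 41 without Homo mice 10, 15 and 16). In Het against WT it was 4, 46 with DESeq2 and 4 to 7 with 1 liver left out (7 without WT mouse 12). In Homo against Het it was 30, 112 with DESeq2, 14 without mice 8, 17 and 19, and 9 to 34 with 1 liver left out (13, 12 and 9 without Het mice 4, 6 and 7, and 17, 12 and 11 without Homo mice 8, 10 and 15). With 1 liver left out, signs turned within these ranges: -0.27 to 0.0181 (Afp), -0.0581 to 0.14 (Golm1), -0.44 to 0.10 (H19) and -0.11 to 0.19 (Igf2) in Het against WT. In Homo against Het they were -0.21 to 0.0705 (Afp), -0.0285 to 0.30 (Golm1), -0.31 to 0.49 (H19) and -0.0056 to 0.44 (Igf2), and in Homo against WT -0.019 to 0.28 (Gpc3) and -0.40 to 0.25 (H19). Afp, Gpc3 and Ly6d rest on 13 to 120 reads per liver, which limits how small a difference could be seen. No paired analysis was possible because the labels give the genotypes no shared replicate numbers.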
